A study of Mus musculus with 8 samples.

Results

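The 34 genes described here encode the enzymes and carriers that take glucose to pyruvate and decide where pyruvate goes. They are the glucose transporters Slc2a1 and Slc2a3, the enzymes from hexokinase to pyruvate kinase, the regulators of fructose 2,6-bisphosphate, the lactate dehydrogenases, the lactate transporters, and the pyruvate dehydrogenase complex with its kinases. They were chosen by gene name, with earlier results of these data known, and were 34 of the 20701 gene symbols in the deposited table. For each symbol the transcript entry with the highest summed count was used.

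RNA was sequenced from the pharyngeal mesoderm and hearts of 8 single mouse embryos of strain C57BL/6 at E8.75 (6 somites). There were 4 Isl1-/- embryos, called knockout, and 4 embryos labelled wild-type, and no further allele or agent was named for either group. Isl1 is a LIM-homeodomain factor that marks progenitors of the heart, and the design asks what its loss does to gene expression there. Each library held tissue of 1 embryo. The tissue was a mixture, since reads of cardiomyocyte, erythroid, endoderm, endothelial and neural genes were present in every embryo.

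Glycolysis breaks glucose down to pyruvate in the cytosol, with a first phase that spends ATP and a second that regains it. Pyruvate is then either reduced to lactate, which leaves the cell through monocarboxylate transporters, or enters mitochondria, where the pyruvate dehydrogenase complex turns it into acetyl-CoA and its kinases hold that step back. Early embryos and the early heart are known to rely strongly on glycolysis, and many of the steps have several isoenzymes with their own tissue preference, muscle forms among them.

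Total counts ran from 23480470 to 26153039 in the wild-type and from 18916452 to 25047013 in the knockout libraries. Isl1 itself lay at 9.72 to 26.9 CPM in the wild-type and 1.78 to 2.40 CPM in the knockout embryos (log2 fold change -3.0, SE 0.36, edgeR FDR 0.0041), where CPM is counts per 1e6 reads after TMM scaling. Knockout embryo 2 is labelled as total RNA, unlike the remaining 7 libraries, which are labelled as polyA RNA. Y-linked genes summed to 276 to 300 CPM in 3 of 4 knockout embryos (1, 3 and 4) and to 280 CPM in wild-type embryo 4. The other embryos, knockout embryo 2 among them, had 0.0829 CPM or less. Of the 34 genes, 4 (Pgk1, Pdha1, Pdk3 and Pfkfb1) are X-linked. The summed CPM of 12 cardiomyocyte genes was 3139 to 4716 in the wild-type, against 1706 to 2562 in the knockout embryos, and 9 of the 12 passed the FDR, each lower. The summed CPM of 10 primitive erythroid genes ranged from 382 in wild-type embryo 3 to 3237 in knockout embryo 2, and that of 10 endoderm genes from 307 to 1966. Lists for endothelium, neural tube and neural crest had 0 genes past the FDR. In such bulk samples fewer cells of a type and less RNA per cell cannot be told apart.

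Of the 34 genes, 0 passed an FDR of 0.05 in edgeR's quasi-likelihood test, against 0.973% of the 14075 genes tested, and the smallest FDR was 0.0993, for Pgam2. All 34 passed the filter on low counts. An unadjusted p-value under 0.05 was found for 6 of them (17.6%), against 17.4% of all genes tested, so the share was that of the background. Of these 6, Pdk1 and Aldoc were higher in the knockout (background 7.37%), and Pgam2, Pgam1, Pdhb and Dlat were lower (background 10.1%). The Wald test of DESeq2 put 3 of the 34 past an adjusted p of 0.05, namely Pgam2, Pdk1 and Aldoc, beside 709 of the 14075 genes, and limma on log2(RPKM + 1) put 0 past it.

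The fold changes were small. The log2 fold change of knockout over wild-type ran from -0.62 in Pgam2 to 0.69 in Eno2, with a median of 0.07 over the 34 genes and 0.01 over all genes tested. It was above 0 in 22 genes, or 64.7%, against 51.2% of all genes, and lay within 0.2 of 0 in 23. The 95% interval stayed inside a 1.5-fold change in either direction for 27 of the 34, and for 68.5% of all genes tested. The thresholds used in the study, a log2 fold change beyond 0.58 with an unadjusted p under 0.05, were met by 2 genes, against 3.93% of all genes, with Aldoc higher (background 1.67%) and Pgam2 lower (background 2.26%). The 34 genes together held 1.49% to 1.62% of all wild-type counts, against 1.59% to 1.77% of all knockout counts, and these ranges overlapped.

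**Figure D1:**
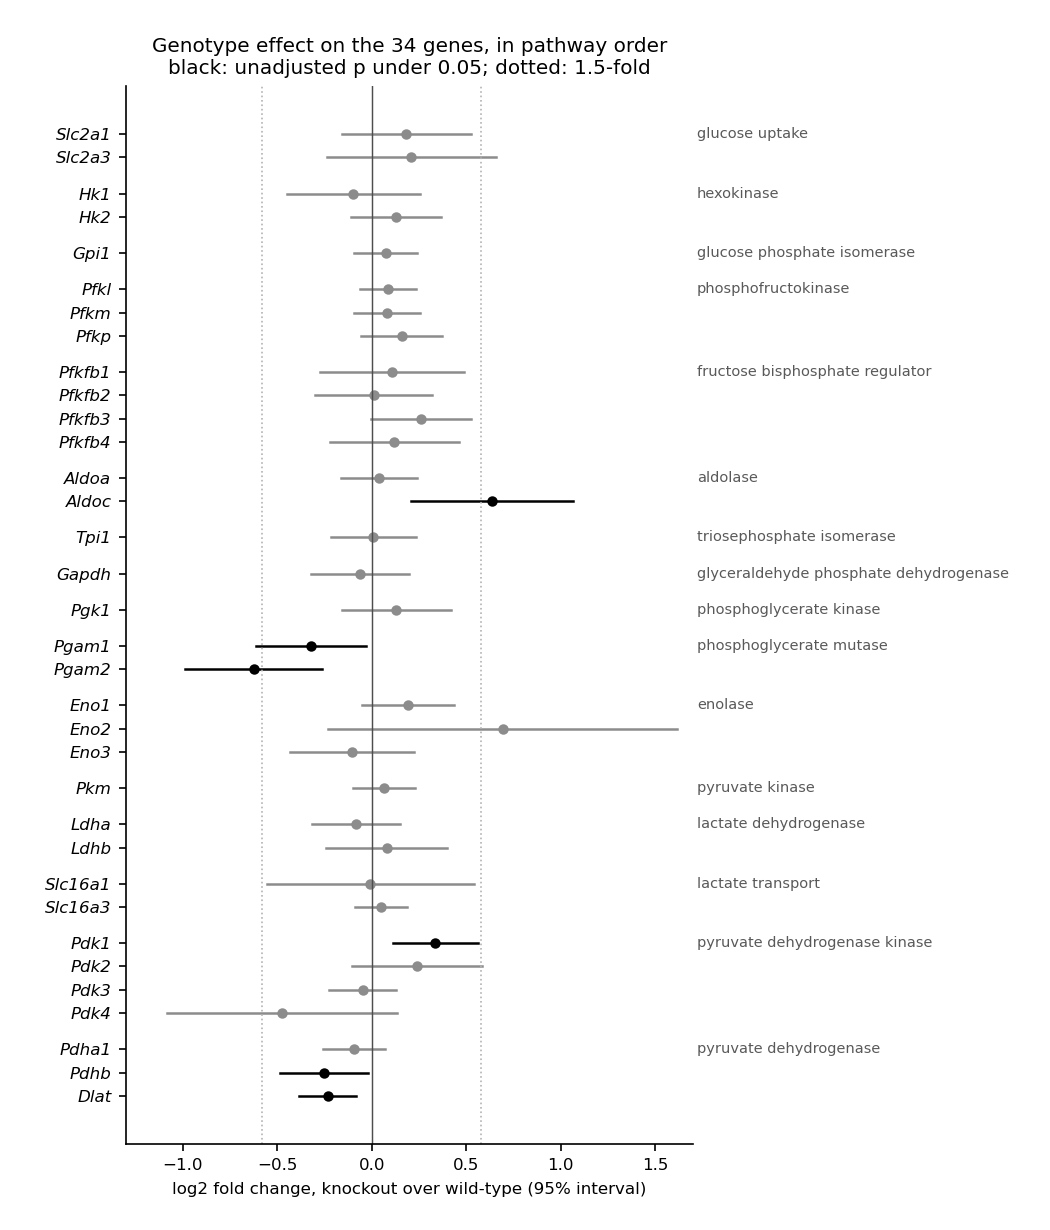
Log2 fold change of knockout over wild-type for each of the 34 genes in pathway order, with its 95% interval from edgeR (n = 4 embryos per genotype). Black marks the 6 genes with an unadjusted p under 0.05 and dotted lines mark a 1.5-fold change; 27 intervals stay between the dotted lines.

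Levels are compared between genes only per length, as RPKM computed from the TMM-scaled counts. On that scale Ldha stood first, at 1578 ± 230 RPKM in the wild-type and 1489 ± 84.7 RPKM in the knockout embryos (SD, n = 4). It was followed by Pkm, Aldoa, Tpi1, Slc2a3, Slc2a1 and Eno1, whose means over the 8 embryos ran from 1331 down to 382 RPKM. The range over the 8 embryos of Pkm overlapped with that of Ldha, and those of Tpi1, Slc2a3, Slc2a1 and Eno1 overlapped each with the next, so these neighbours did not separate beyond their spread. Pkm and Aldoa did not overlap, nor did Aldoa and Tpi1. At the other end stood Pdk4 at 0.376 ± 0.0589 RPKM in the wild-type and Eno2 at 1.17 ± 0.247 RPKM.

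**Figure D2:**
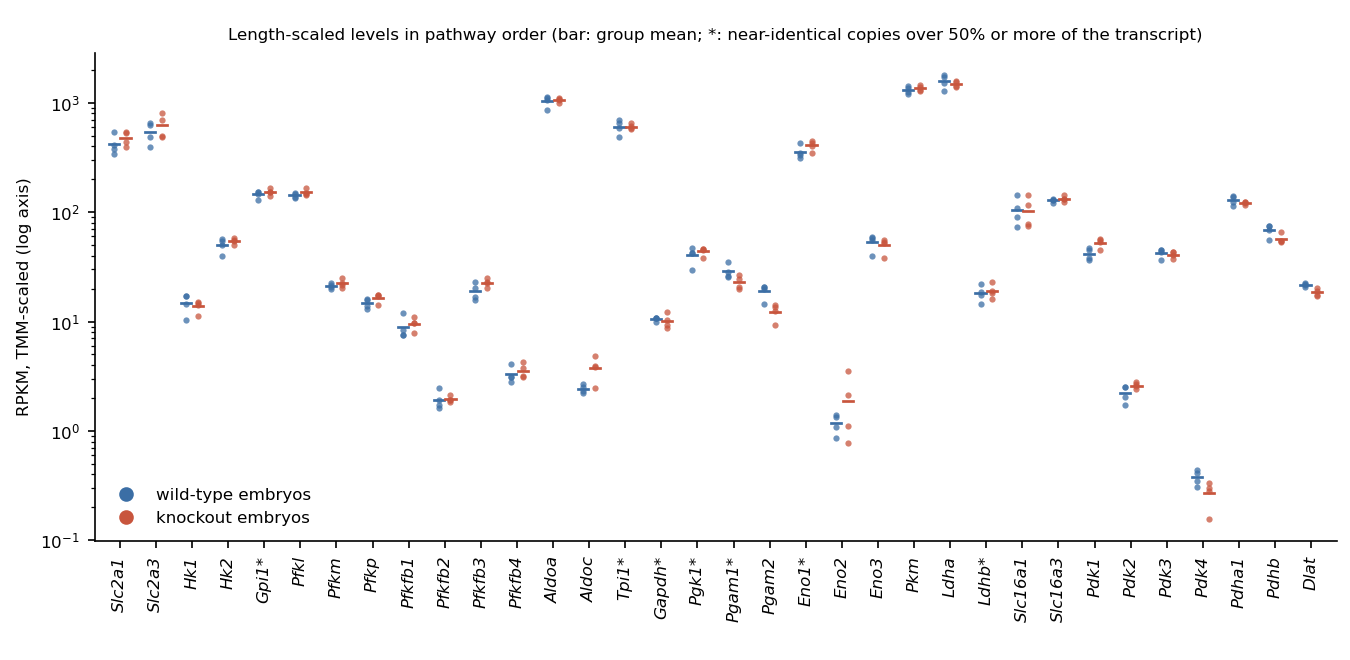
TMM-scaled RPKM (log axis) of the 34 genes in pathway order, 1 point per embryo, with bars at the group means. Ldha, Pkm and Aldoa sit near or above 1000 RPKM in both genotypes, while Gapdh sits near 10 RPKM; asterisks mark the 7 genes with near-identical copies over at least 50% of the transcript.

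The low values of Gapdh, Pgk1 and Pgam1, at 10.6, 40.2 and 28.7 RPKM in the wild-type, were below those of the steps beside them, Tpi1 and Eno1. These genes have near-identical copies elsewhere in the genome, 36 that span over 50% of the transcript for Gapdh and 2 each for Pgk1 and Pgam1, and how the authors' counting treated reads that fit several places is not given in the sources used here. For Gapdh, 88.6% of the transcript aligned to another place in the mm9 genome at 97% identity or more. The share with such a copy was 95.7% for Pgk1, 94.7% for Pgam1, 98.5% for Ldhb, 85.6% for Eno1, 65.1% for Gpi1 and 54.0% for Tpi1. Pkm, Ldha, Aldoa and 22 other genes had none. The levels of these 7 genes, their ranks above, and the shares and orders below that include Pgam1, Eno1 or Ldhb carry this uncertainty.

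A stretch of the Gapdh transcript is shown because a read inside it fits at least 4 places equally well. The full number of identical places was not counted. It lies at chr6:125113376-125113455 (minus strand, mm9). The same 80 bases, with 0 differences, stand at chr11:20235915-20235994, chr2:28790028-28790107 and chr5:96290755-96290834, each within a copy whose aligned part is 99.84% identical to the transcript. No base is in capitals, since none differed.
Gapdh: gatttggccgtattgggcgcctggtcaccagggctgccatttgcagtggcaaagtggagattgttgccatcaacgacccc

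Glucose enters through Slc2a1 (GLUT1, the ubiquitous carrier) and Slc2a3 (GLUT3, a high-affinity carrier of embryonic and neural cells). Slc2a3 read 1906, 2448, 2578 and 1562 CPM in the wild-type, here and below in the order of embryos 1 to 4, and 1950, 3210, 2742 and 1924 CPM in the knockout embryos. The groups overlapped, and the highest value of each genotype fell in wild-type embryo 3 and knockout embryo 2. The log2 fold change was 0.21 (SE 0.20, FDR 0.627). Slc2a1 averaged 1072 ± 230 CPM in wild-type and 1217 ± 182 CPM in knockout embryos (SD, n = 4; log2 fold change 0.18, FDR 0.572).

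Hexokinase traps glucose as its 6-phosphate. Hk2, the regulated form of muscle and growing cells, read 273, 298, 313 and 216 CPM in the wild-type and 308, 278, 319 and 299 CPM in the knockout embryos. The groups overlapped, with wild-type embryo 4 the lowest of the 8 (log2 fold change 0.13, SE 0.11, FDR 0.565). Hk1, the form of most adult tissues, averaged 61.0 ± 13.2 CPM and 57.0 ± 7.22 CPM (log2 fold change -0.10, FDR 0.789). Gpi1, the isomerase that follows, read 435, 441, 373 and 418 CPM in the wild-type and 476, 402, 438 and 439 CPM in the knockout embryos, again with overlap (FDR 0.646).

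Phosphofructokinase makes the committed step. Its liver-type subunit Pfkl read 539, 502, 557 and 509 CPM in the wild-type and 611, 531, 541 and 552 CPM in the knockout embryos (log2 fold change 0.09, SE 0.07, FDR 0.536). The muscle subunit Pfkm and the platelet subunit Pfkp had log2 fold changes of 0.08 and 0.16 (FDR 0.644 and 0.433), so the 3 subunits were all slightly above 0 and none passed. Of the bifunctional enzymes that set the activator fructose 2,6-bisphosphate, Pfkfb3, the form with the strongest kinase activity, read 86.5, 119, 104 and 81.5 CPM in the wild-type and 119, 105, 128 and 116 CPM in the knockout embryos. Its groups overlapped, and at a log2 fold change of 0.26 (SE 0.12, unadjusted p 0.0530 and FDR 0.295 in edgeR) it was the nearest of the 28 others to the unadjusted threshold. Pfkfb1, Pfkfb2 and Pfkfb4 lay between 9.40 and 20.8 CPM in every embryo, with log2 fold changes of 0.11, 0.01 and 0.12.

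Aldolase splits the sugar into a pair of 3-carbon sugars. Aldoa, the muscle and embryonic form, read 1727, 1793, 1358 and 1659 CPM in the wild-type and 1760, 1569, 1722 and 1669 CPM in the knockout embryos, without a separation of the groups (log2 fold change 0.04, FDR 0.849). Aldoc (chr11:78136470-78141283, plus strand, mm9), the brain form, read 6.18, 7.09, 5.90 and 6.77 CPM in the wild-type and 10.5, 6.55, 13.0 and 10.3 CPM in the knockout embryos. Knockout embryos 1, 3 and 4 lay above every wild-type embryo, and knockout embryo 2, the library labelled total RNA, lay among them. Embryo 2 was also the only knockout embryo with almost no Y-linked reads, at a sum of 0.0829 CPM.

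For Aldoc the log2 fold change was 0.64 (SE 0.19, 95% interval 0.21 to 1.07, unadjusted p 0.00785, edgeR FDR 0.142). Without knockout embryo 2 it was 0.80 and the FDR was 0.0357, and the Wald test of DESeq2 on all 8 embryos gave an adjusted p of 0.0399. With the Y-linked level as a covariate it was 0.39 (FDR 0.451), and without knockout embryo 3 it was 0.49 (FDR 0.249). It rested on 140 to 272 reads per library. Aldoc made up no more than 0.445% of the summed aldolase RPKM in any embryo.

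Tpi1, which interconverts the trioses, read 1039, 1096, 778 and 927 CPM in the wild-type and 970, 918, 1033 and 943 CPM in the knockout embryos (log2 fold change 0.01, FDR 0.973). Gapdh, the next enzyme, read 15.3, 15.3, 13.99 and 15.4 CPM against 13.3, 12.4, 17.2 and 14.6 CPM (log2 fold change -0.06, FDR 0.820). Pgk1, the first step that regains ATP, read 85.0, 76.0, 53.7 and 76.6 CPM against 83.5, 69.8, 82.5 and 82.9 CPM (log2 fold change 0.13, FDR 0.646). In all 3 genes the groups overlapped and wild-type embryo 3 was the lowest wild-type embryo.

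Phosphoglycerate mutase was the step at which both isoenzymes were lower in the knockout at an unadjusted p under 0.05. Pgam2 (chr11:5701643-5703736, minus strand, mm9), the muscle form, read 18.7, 18.7, 13.1 and 18.02 CPM in the wild-type and 12.1, 8.33, 12.8 and 11.3 CPM in the knockout embryos. The groups did not overlap, and the gap was small, since wild-type embryo 3 at 13.1 CPM lay just above knockout embryo 3 at 12.8 CPM. Values that did not overlap were found in 10.3% of all genes tested and in 2 of the 34, Pgam2 and Dlat, both lower in the knockout (background 6.33%), while 0 of them were higher without overlap (background 3.96%).

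The log2 fold change of Pgam2 was -0.62 (SE 0.16, 95% interval -0.99 to -0.26, unadjusted p 0.00329, edgeR FDR 0.0993). It passed without wild-type embryo 3 (log2 fold change -0.73, FDR 0.0344), with erythroid and endoderm scores as covariates (-0.67, FDR 0.0245) and under DESeq2 (adjusted p 0.0119). Over all genes these fits put 490, 1027 and 709 past the FDR, against 137 in the main fit. Pgam2 passed in no other of the 17 alternatives, and leaving out 1 embryo gave -0.73 to -0.50. Pgam2 has 0 near-identical copies. The cardiomyocyte sum moved in the same direction, from 3139 to 4716 CPM down to 1706 to 2562 CPM, and was likewise lowest in wild-type embryo 3 and in knockout embryo 2 within their genotypes. The part of muscle content in the Pgam2 values was not tested.

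Pgam1, the broadly expressed mutase, read 51.6, 46.4, 64.4 and 47.3 CPM in the wild-type and 48.6, 44.9, 36.2 and 37.99 CPM in the knockout embryos. The groups overlapped, and wild-type embryo 3 was here the highest of all 8 (log2 fold change -0.32, SE 0.13, unadjusted p 0.0333, edgeR FDR 0.244). Its counts carry the uncertainty of near-identical copies.

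Enolase has 3 isoenzymes that did not move alike. Eno1, the ubiquitous form, read 555, 587, 616 and 755 CPM in the wild-type and 616, 709, 793 and 755 CPM in the knockout embryos (log2 fold change 0.19, SE 0.11, FDR 0.396). The muscle form Eno3 read 88.0, 92.4, 62.9 and 94.0 CPM against 82.8, 60.2, 84.0 and 87.1 CPM, with overlap (log2 fold change -0.10, FDR 0.759). Unlike Pgam2, which is also a muscle form, Eno3 was at similar levels in 3 embryos of each genotype, and its 2 low values fell in wild-type embryo 3 and knockout embryo 2.

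The neuronal form Eno2 had the largest log2 fold change of the 34 genes, 0.69, with an SE of 0.41 (FDR 0.421). It read 3.0, 3.86, 2.40 and 3.76 CPM in the wild-type and 9.82, 5.89, 3.08 and 2.15 CPM in the knockout embryos. Knockout embryos 1 and 2 lay above the wild-type range and knockout embryo 4 below it, and without knockout embryo 1 the log2 fold change was 0.19. Leaving out any other embryo gave 0.57 to 0.95.

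Pyruvate kinase closes the pathway. Pkm read 3420, 2883, 3014 and 3273 CPM in the wild-type and 3503, 3105, 3382 and 3183 CPM in the knockout embryos (log2 fold change 0.07, SE 0.07, FDR 0.690). The gene gives a muscle form, M1, and an embryonic form, M2, by taking up 1 of a pair of exons. The exons lie in tandem at chr9:59522836-59523002 (M1) and chr9:59523375-59523541 (M2), plus strand, mm9, and are shown because they let the deposited entries be set apart. Capitals mark the 64 of 167 positions at which they differ.
M1 exon: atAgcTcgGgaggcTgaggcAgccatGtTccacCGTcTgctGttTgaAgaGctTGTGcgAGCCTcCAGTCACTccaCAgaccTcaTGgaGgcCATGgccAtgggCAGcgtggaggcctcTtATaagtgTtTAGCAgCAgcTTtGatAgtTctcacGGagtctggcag
M2 exon: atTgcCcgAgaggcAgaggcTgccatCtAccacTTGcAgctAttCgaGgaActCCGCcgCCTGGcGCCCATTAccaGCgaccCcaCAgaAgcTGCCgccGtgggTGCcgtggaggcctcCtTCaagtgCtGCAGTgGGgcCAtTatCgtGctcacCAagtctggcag

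The exons are 61.7% identical. The table held an entry for each form, both of 2419 bases, of which the differing exon makes up 6.90%. The M2 entry had more reads than the M1 entry in every embryo, by 7.48%, 8.43%, 7.59% and 7.84% of its own count in the wild-type and by 8.70%, 8.08%, 7.82% and 8.31% in the knockout embryos, in the order of their numbers. The groups overlapped, at 7.83% ± 0.423 and 8.23% ± 0.374 (SD, n = 4). No share of either form was taken from it.

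Lactate dehydrogenase is the exit to lactate. Ldha, which favours lactate formation, read 3241, 3093, 2304 and 2765 CPM in the wild-type and 2815, 2571, 2827 and 2543 CPM in the knockout embryos, and wild-type embryo 3 was the lowest of the 8 (log2 fold change -0.08, SE 0.10, FDR 0.716). Ldhb, the heart form of the adult, averaged 23.5 ± 3.94 CPM and 24.8 ± 3.79 CPM (log2 fold change 0.08, FDR 0.815). In RPKM Ldhb was at most 1.46% of the pair in any embryo.

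Of the lactate carriers, Slc16a3 (MCT4, the exporter of strongly glycolytic cells) read 322, 327, 321 and 304 CPM in the wild-type and 359, 305, 326 and 329 CPM in the knockout embryos. Its SD was 9.85 CPM in the wild-type and 22.2 CPM in the knockout embryos (log2 fold change 0.05, SE 0.06, FDR 0.722). Slc16a1 (MCT1, which carries lactate both ways) read 399, 480, 635 and 324 CPM in the wild-type and 330, 633, 520 and 346 CPM in the knockout embryos, and its log2 fold change was -0.01 with the wide SE of 0.25 (FDR 0.990).

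Slc16a1 and Slc2a3 spread widely within each genotype. Both were highest in wild-type embryo 3 and in knockout embryos 2 and 3. The endoderm genes summed to 545, 868, 1315 and 355 CPM in the wild-type, against 307, 1966, 1652 and 384 CPM in the knockout embryos, and the same embryos were the highest of their genotype. Emb, an ancillary protein of monocarboxylate transporters, read 936 CPM in wild-type embryo 3 and 847 and 692 CPM in knockout embryos 2 and 3. It read 327 to 632 CPM in the others. Bsg, another such protein, did not follow, at 491, 500, 415 and 439 CPM in the wild-type. In the knockout embryos it read 473, 466, 512 and 490 CPM, so wild-type embryo 3 was its lowest. In the embryos with the highest endoderm sums most of it came from Afp, Apoa1 and Ttr. They read 390, 355 and 270 CPM in wild-type embryo 3 and 840, 503 and 327 CPM in knockout embryo 2. Of the rest, Cldn6 was also highest in wild-type embryo 3 and in knockout embryos 2 and 3. Among knockout embryos Shh was highest in embryo 1, at 18.4 CPM, and Sox17 lowest in embryo 3, at 4.76 CPM. The endoderm list was chosen for foregut and visceral endoderm, and 1 of its 10 genes (Apela) was lower in the knockout past the FDR. The part of endoderm content in the 2 carriers was not tested.

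**Figure D3:**
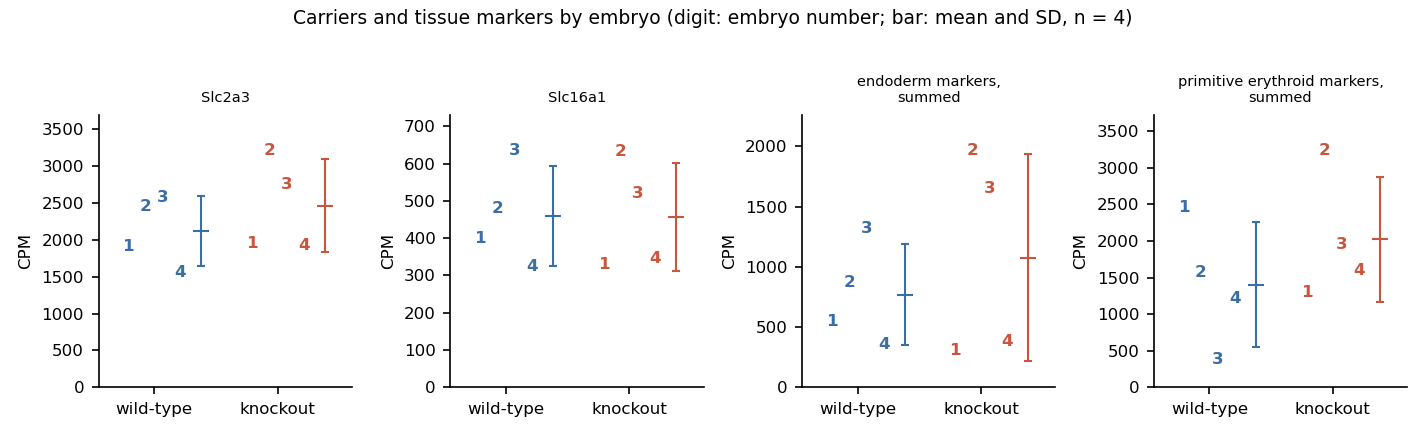
CPM of the carriers Slc2a3 and Slc16a1 and summed CPM of 10 endoderm and 10 primitive erythroid genes, with digits for embryo numbers and bars for mean and SD (n = 4). Wild-type embryo 3 and knockout embryos 2 and 3 are highest for both carriers and for the endoderm sum, while the erythroid sum is lowest in wild-type embryo 3.

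The pyruvate dehydrogenase kinases switch off entry of pyruvate into the mitochondrial cycle. Pdk1 (chr2:71711281-71741915, plus strand, mm9), known as a target of hypoxia-inducible factor, read 241, 231, 188 and 199 CPM in the wild-type and 277, 231, 286 and 293 CPM in the knockout embryos. Knockout embryos 1, 3 and 4, those with Y-linked reads, lay above all wild-type embryos. Knockout embryo 2, at 230.9 CPM, lay just under wild-type embryo 2 at 231.5 CPM. Wild-type embryo 4, which also held Y-linked reads, read 199 CPM. The log2 fold change was 0.34 (SE 0.10, 95% interval 0.11 to 0.56, unadjusted p 0.00737, edgeR FDR 0.139), and the adjusted p of DESeq2 was 0.0266.

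The other kinases did not follow Pdk1. Pdk3 averaged 84.1 ± 7.56 CPM in the wild-type and 81.4 ± 5.27 CPM in the knockout embryos (log2 fold change -0.05, FDR 0.800). Pdk2 was scarce at 3.88 to 6.26 CPM (log2 fold change 0.24, FDR 0.455). Pdk4, the kinase of fasting and of fat-burning adult muscle, lay between 0.539 and 1.51 CPM, on 13 to 37 reads per library (log2 fold change -0.48, SE 0.27, FDR 0.403).

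The 3 subunits of the complex on which these kinases act had log2 fold changes below 0. Dlat, the E2 core subunit (chr9:50442738-50467885, minus strand, mm9), read 89.6, 87.2, 88.3 and 83.7 CPM in the wild-type and 76.5, 81.5, 69.2 and 69.8 CPM in the knockout embryos. All knockout embryos lay below all wild-type embryos, by a log2 fold change of -0.23 (SE 0.07, unadjusted p 0.00646, edgeR FDR 0.134). Pdhb, the E1 beta subunit, read 110, 109, 82.4 and 100.2 CPM in the wild-type and 79.0, 80.05, 97.7 and 79.8 CPM in the knockout embryos, with 1 embryo of each genotype inside the other range (log2 fold change -0.25, SE 0.10, unadjusted p 0.0367, edgeR FDR 0.251). Pdha1, the E1 alpha subunit on which the kinases act, read 395, 400, 323 and 355 CPM against 353, 348, 347 and 333 CPM and overlapped (log2 fold change -0.09, FDR 0.556).

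**Figure D4:**
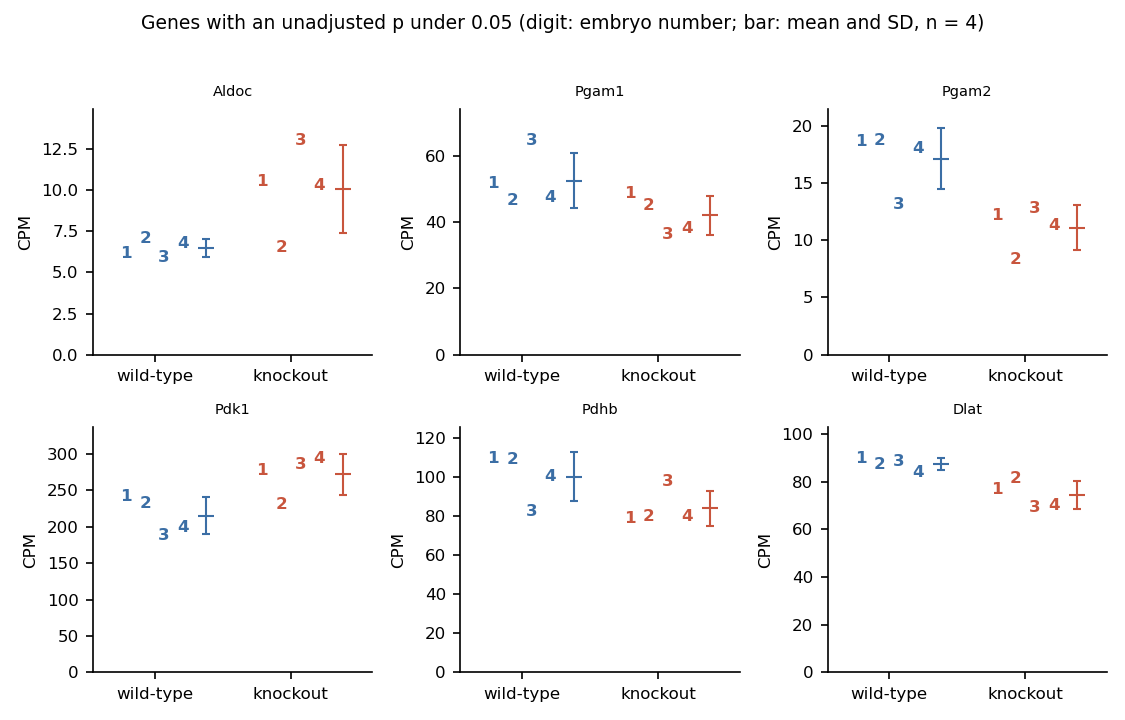
CPM of the 6 genes with an unadjusted p under 0.05, with digits for embryo numbers and bars for mean and SD (n = 4 per genotype). Pgam2 and Dlat are lower in all 4 knockout embryos, while Aldoc and Pdk1 are above the wild-type range in 3 of 4 knockout embryos.

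Isoenzyme use was compared as the share of 1 isoenzyme in the summed RPKM of its family, which removes any change common to the family. For 10 such shares an exact two-sided permutation test was made, whose smallest possible p with 4 against 4 embryos is 0.0286, and p-values were adjusted over the 10. The share of Pdk1 among the 4 kinases was the only one of the 10 without overlap. For CPM of single genes, a different measure, values without overlap were found in 10.3% of all genes tested. No such background was made for shares, so 1 of 10 cannot be weighed against one. The wild-type embryos had 49.5%, 48.4%, 48.2% and 45.9%, and the knockout embryos had 53.8%, 52.6%, 56.0% and 55.4%, in the order of their numbers. The means were 48.0% ± 1.55 and 54.4% ± 1.53 (SD, n = 4), a difference of 6.41 percentage points (exact p 0.0286, adjusted p 0.286).

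This difference was larger than the SD of either genotype. With 4 against 4 embryos, 1 separated share among 10 cannot reach an adjusted p below 0.286, so this test cannot decide whether the share differs. Knockout embryo 2, which lay within the wild-type range for Pdk1 CPM, lay outside it for the share. The share of Pdk3 was the mirror of it, at 47.4% to 51.6% in the wild-type against 41.1% to 44.1% in the knockout embryos. Pdk2 and Pdk4 held at most 3.15% and 0.487% of the family. The share of Pdk3 therefore had to fall as that of Pdk1 rose, and it is no separate result. Pdk1 and Pdk3 were near equal in the wild-type, at 41.6 ± 4.91 and 42.3 ± 3.81 RPKM, and stood at 52.5 ± 5.42 and 41.0 ± 2.65 RPKM in the knockout.

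The other 9 shares overlapped between the genotypes. Aldoc held 0.235% ± 0.0188 of aldolase RPKM in the wild-type against 0.352% ± 0.0816 in the knockout embryos (exact p 0.0571, adjusted p 0.286). Pgam2 held 40.0% ± 7.26 and 35.0% ± 6.10 of the mutases and Eno3 held 13.1% ± 2.31 and 10.9% ± 1.80 of the enolases (exact p 0.286 and 0.20). The exact p of the remaining 6 ran from 0.229 to 0.971. Within 8 of the 10 families the order of the isoenzymes was the same in all 8 embryos. Slc2a3 led Slc2a1, Hk2 led Hk1 with 73.3% to 84.5% of the pair, and Pfkl led Pfkm and Pfkp with 78.4% to 81.3%.

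**Figure D5:**
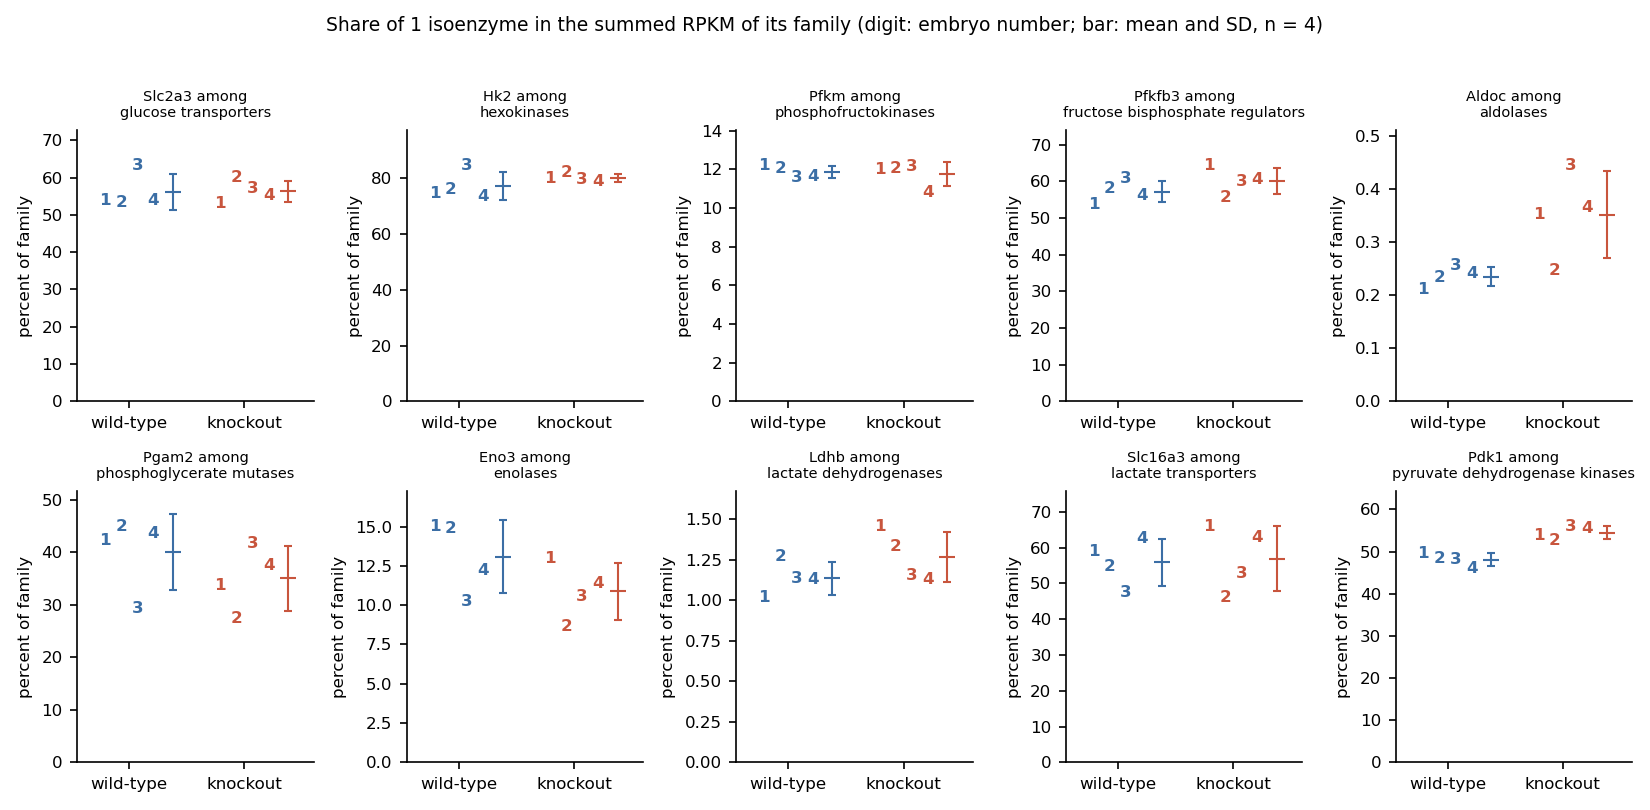
Share (percent) of 1 isoenzyme in the summed TMM-scaled RPKM of its family for 10 families, with digits for embryo numbers and bars for mean and SD (n = 4 per genotype). The share of Pdk1 is 45.9% to 49.5% in the wild-type against 52.6% to 56.0% in the knockout embryos, and the other 9 shares overlap.

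The 34 genes were also read embryo by embryo, because some embryos stood apart. Wild-type embryo 3 was the lowest wild-type embryo in 19 of the 34 genes, against 33.9% of all genes tested. Knockout embryo 2 was the lowest knockout embryo in 18, against 27.4% of all genes. The first had the lowest erythroid and cardiomyocyte sums of its genotype and a high endoderm sum, and the second had the highest erythroid and endoderm sums and the lowest cardiomyocyte sum. Without wild-type embryo 3, 8 of the 34 genes had an unadjusted p under 0.05 (23.8% of all genes in that fit), and without knockout embryo 2, 7 had (17.7%). With the Y-linked level as a covariate 0 of the 34 were past the FDR, and 6 had an unadjusted p under 0.05 (12.5% of all genes in that fit). In that fit the log2 fold change of Slc2a3 was 0.49 and that of Slc2a1 0.36 (edgeR FDR 0.280 and 0.380), against 0.21 and 0.18 without the covariate.

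Promoters were searched for letters known from textbook binding motifs, since several of the 34 genes are known targets of hypoxia-inducible factors. The windows, from 250 bases before to 50 bases after each annotated start, came from RefSeq on GRCm38.p6, and 33 of the 34 genes had at least 1. The core ACGTG or GCGTG, read on both strands, was found in 28 of these 33 genes (84.8%), against 46.7% of the 27025 genes with a window and 66.5% of the genes tested here. Counted per window it was found in 73.1% of the 52 windows of these genes and 43.8% of all windows. The E-box CACGTG, which contains the core, was found in 6 genes (18.2%), against 8.1% of all genes and 11.6% of the genes tested. A match is a description of letters and not a binding site.

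The windows of the 2 genes that were nominally higher and of Pgam2 are shown with matches to the core, on either strand, in capitals. They are Pdk1 at chr2:71872974-71873273 (plus strand), Aldoc at chr11:78322823-78323122 (plus strand) and Pgam2 at chr11:5803747-5804046 (minus strand), each of 300 bases, 5′ to 3′, on GRCm38.p6. Pdk1 had 2 matches, Aldoc 3 and Pgam2 0 in this window, while a second window had 0 for Pdk1 and 1 for Aldoc. Of the other genes that were nominally lower, Pgam1 had 3 matches, Pdhb 2 and Dlat 0.
Pdk1: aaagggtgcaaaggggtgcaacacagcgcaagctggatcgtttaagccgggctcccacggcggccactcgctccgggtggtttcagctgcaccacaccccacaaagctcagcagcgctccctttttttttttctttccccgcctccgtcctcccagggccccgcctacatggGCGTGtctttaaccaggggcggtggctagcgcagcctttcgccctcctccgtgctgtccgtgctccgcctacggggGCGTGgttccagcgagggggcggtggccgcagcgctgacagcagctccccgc
Aldoc: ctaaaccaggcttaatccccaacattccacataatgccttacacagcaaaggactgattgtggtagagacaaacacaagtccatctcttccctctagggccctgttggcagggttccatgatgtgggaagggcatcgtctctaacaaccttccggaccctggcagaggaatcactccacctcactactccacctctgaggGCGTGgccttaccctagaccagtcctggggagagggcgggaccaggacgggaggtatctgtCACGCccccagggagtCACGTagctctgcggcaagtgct
Pgam2: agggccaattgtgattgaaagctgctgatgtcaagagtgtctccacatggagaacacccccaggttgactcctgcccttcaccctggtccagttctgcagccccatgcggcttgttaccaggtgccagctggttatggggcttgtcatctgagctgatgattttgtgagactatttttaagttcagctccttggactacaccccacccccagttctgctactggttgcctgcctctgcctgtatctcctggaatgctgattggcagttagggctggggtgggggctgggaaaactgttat

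Matches were also present in genes with fold changes near 0. Ldha, with 7 matches in its first window, had a log2 fold change of -0.08, and Slc16a1, with 5, one of -0.01. Both windows hold CACGTG, which reads as the core on each strand and was counted for each, unlike the windows shown above.

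Genes next to the pathway were examined as 9 lists of 105 genes, of which 96 were tested. Past the FDR were 0 higher and 2 lower (background 0.107% and 0.867%). Gyg, the primer protein of glycogen synthesis, fell from 177 ± 17.7 to 124 ± 6.32 CPM (SD, n = 4; log2 fold change -0.52, edgeR FDR 0.0128). Esrrg, a nuclear receptor of oxidative metabolism in the heart, fell from 17.8 ± 1.94 to 7.23 ± 0.916 CPM (log2 fold change -1.304, edgeR FDR 0.00212). In both genes the genotypes did not overlap.

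Downstream of pyruvate, 14 of the 15 tricarboxylic acid cycle genes and 8 of the 9 genes of the NADH shuttles had log2 fold changes below 0, against 48.8% of all genes. An unadjusted p under 0.05 was found in 4 and in 3 of them, all lower (background 10.1%), 0 passed the FDR, and the medians were -0.13 and -0.16. Of the parts of the pyruvate dehydrogenase complex outside the 34, Dld (E3) and Pdhx (its binding protein) had log2 fold changes of -0.29 and -0.20 (edgeR FDR 0.112 and 0.264). The phosphatase subunit Pdp1, which reverses the kinases, had one of 0.46 (FDR 0.0935).

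Of 12 hypoxia targets outside glycolysis, 11 had log2 fold changes above 0 and 8 an unadjusted p under 0.05, all higher, with a median of 0.45 and 0 past the FDR. The shares over all genes tested were 51.2% and 7.37%. The 34 genes of the pathway had 2 genes higher at that level and a median of 0.07. Of the 12 hypoxia targets, 1 (P4ha2) was higher without overlap of the genotypes (background 3.96%). Among the 8, knockout embryo 2 lay above the wild-type range in P4ha2 and Ndrg1. It lay within that range in Vegfa, Bnip3, Ankrd37, Ddit4, Kdm3a and Car9. This is the library labelled total RNA, and the only knockout embryo with almost no Y-linked reads. Hif1a itself was at a log2 fold change of -0.38 (edgeR FDR 0.0772) and Egln1, the oxygen sensor, at 0.38 (FDR 0.0784). The remaining lists, namely the other isoenzymes, gluconeogenesis and the pentose phosphate pathway, had 0 genes past the FDR of 18, 3 and 8 tested, and 3, 0 and 4 with an unadjusted p under 0.05. Of the glycogen genes, the pyruvate entry genes and the regulators, 5 of 10, 3 of 7 and 6 of 14 had one, against 17.4% of all genes tested.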

How the data were processed

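RNA from 8 single embryos was measured. Per the labels and the study's methods, the authors mapped reads to mm9 with STAR and counted reads over RefSeq transcripts with HOMER, without normalization; the deposited count values are whole reads. The deposited RPKM values were computed by the authors with edgeR and served here in 1 alternative. The deposited length column (other unit, bases) gave lengths. Other deposited columns held the authors' own comparison and were not used: a baseMean signal, a log2 fold change with its standard error, a test score, and p-values. Tool versions are not given in the sources used here.

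For each of 20701 symbols (31507 entries) the entry with the highest summed count was kept. Counts were tested with edgeR 4.0.16 in R 4.3.3 (filterByExpr, TMM, quasi-likelihood, genotype as the single term, two-sided, Benjamini-Hochberg FDR over 14075 genes). DESeq2 1.42.0 and limma 3.58.1 served as alternatives. RPKM of the text was TMM-scaled CPM per kilobase. Standard errors were taken from the F statistic. Near-identical copies were found with BLAST 2.17.0 on NCBIM37 (mm9), at 97% identity over at least 100 bases and outside 1000 bases around the gene; genes were placed with GENCODE vM1. Python 3.11.15, pandas 2.3.3, numpy 2.4.6 and matplotlib 3.10.9 were used. The model was tested on simulated counts.

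Values in every embryo are given for genes with an unadjusted p under 0.05 and for the gene with the highest RPKM of each of 16 steps; of the neighbouring lists, genes past the FDR are given in full. Slc16a1, Emb, Eno2, Eno3 and the other genes given beyond that rule were singled out after their values were seen. The members and lists were chosen with earlier results of these data known. Depth was 18916452 to 26153039 counts, and the labels number 4 embryos per genotype, without stating litters. The edgeR p-values and 95% intervals come from the fit, whose dispersions draw on all genes. They weigh the genotype difference against variation between these embryos and are not themselves the spread of a gene.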

Additional observations from a re-analysis of the deposited data

Results flagged for a closer look

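Each value below lay apart from the other 3 embryos of its genotype by Dixon's criterion, which at this group size chance meets in about 1 of 20 groups. Over 88 groups (68 of CPM and 20 of shares) 9 values met it.

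Wild-type embryo 3 accounted for 4 of them. Its Gapdh level was 13.99 CPM against 15.3 to 15.4 CPM in the other wild-type embryos, and its Pgam2 level was 13.1 CPM against 18.02 to 18.7 CPM. Its share of Slc2a3 in the glucose transporters was 63.3% against 53.2% to 53.9%, and its share of Pgam2 in the mutases was 29.3% against 42.3% to 44.96%. In this embryo the erythroid sum was 382 CPM and the cardiomyocyte sum 3139 CPM, each the lowest of the wild-type group. The part of tissue content in these values was not tested.

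Knockout embryo 2 accounted for 3. Its Pfkp level was 56.3 CPM against 68.2 to 70.3 CPM in the other knockout embryos, its Pgk1 level was 69.8 CPM against 82.5 to 83.5 CPM, and its Eno3 level was 60.2 CPM against 82.8 to 87.1 CPM. This is the library labelled total RNA, and its erythroid sum of 3237 CPM was the highest of all 8. It was also the only knockout embryo with almost no Y-linked reads. Label, tissue content and Y-linked level cannot be told apart here.

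Pdhb in knockout embryo 3 was 97.7 CPM against 79.0 to 80.05 CPM in the other knockout embryos. The share of Pfkm in the phosphofructokinases was 10.8% in knockout embryo 4 against 11.99% to 12.2%.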

How the results depend on the processing

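Of 578 values of the 34 genes under 17 alternatives, 547 kept their sign and stayed short of an FDR of 0.05, 6 passed it and 25 had the other sign, in 8 genes whose fold changes lie near 0; the causes were not tested. Past it came Pgam2 under DESeq2, with erythroid and endoderm scores as covariates and without wild-type embryo 3, Aldoc under DESeq2 and without knockout embryo 2, and Pdk1 under DESeq2. The count of the 34 past the FDR was 3 under DESeq2, 1 with the tissue covariates and 0 to 1 on leaving out 1 embryo. The count past the study's thresholds was 0 under limma, 1 under total count scaling and 1 to 3 on leaving out 1 embryo. Adding 1 to RPKM under limma shrinks log2 fold changes of genes with low RPKM, so the same cutoff is stricter there. Over all genes the count past the FDR was 709 under DESeq2, 1027 with the tissue covariates and 70 to 490 on leaving out 1 embryo (490 without wild-type embryo 3), and that past the study's thresholds was 115 under limma. Embryos of the same number correlated at 0.109, 0.212, 0.0863 and 0.507 in their deviations from the group means. Embryos 2 and 3 of each genotype, among others, correlated best with another number. The labels do not state litters, and these correlations do not decide whether the numbers pair the embryos. With the number as a replicate block 76 genes and 0 of the 34 passed the FDR. The other sign was seen in log2 fold changes of Slc16a1 with limma (0.0385), total counts (0.0434), no low-count filter (0.00829), the Y-linked covariate (0.32) and the tissue covariates (0.0209), of Pdk3 with limma (0.0112) and total counts (0.00923), of Aldoa with the Y-linked (-0.0014) and tissue covariates (-0.0157), and of Tpi1 with the tissue covariates (-0.0661). Leaving out 1 embryo gave log2 fold changes of -0.0647 to 0.148 for Pfkfb2, -0.0393 to 0.0864 for Aldoa, -0.0793 to 0.0779 for Tpi1, -0.16 to 0.00651 for Gapdh, -0.221 to 0.00998 for Eno3, -0.0234 to 0.185 for Ldhb and -0.201 to 0.189 for Slc16a1. It gave share differences of -1.01 to 2.61 percentage points for Slc2a3, -0.244 to 0.205 for Pfkm and -1.997 to 4.60 for Slc16a3. Total count scaling moved the median of all genes to 0.06. Genes with few reads, such as Pdk4, and genes with near-identical copies are limited by depth and by read assignment.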
